A study of Mus musculus with 2 samples.

Results

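The genes described here are 38 mouse genes that repair DNA damage or signal its presence, taken as a fixed list of names and grouped into homologous recombination (9 genes), the Fanconi pathway (5), mismatch repair (3), excision repair (10), end joining (4) and checkpoint signalling (7). Of them, 37 are among the 28778 gene names with a probe on the array. RNA came from RAW 264.7 cells, an established mouse line with macrophage features from which the cytokine RANKL drives osteoclast-like cells. It was measured on 2 Agilent arrays of 1 colour, 1 per condition. RCCS cells were loaded for 24 h into a rotary cell culture system, a rotating vessel used to model microgravity, and stimulation was with 80 ng/ml RANKL over 24 h. Control cells were kept on the ground in parallel. Both samples carry identical protocol text, which leaves unclear if RANKL was added to the control, so each difference is described as RCCS against control.

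DNA repair pathways divide the work by the kind of lesion. Homologous recombination copies an intact sister chromatid to mend double-strand breaks and the Fanconi genes clear crosslinks between strands, both mainly in S and G2 phase. End joining ligates broken ends directly in any phase. Mismatch repair corrects replication errors, base and nucleotide excision repair remove damaged bases and bulky lesions, and the checkpoint kinases hold the cell cycle while repair proceeds. Macrophages make reactive oxygen species, and many repair genes are transcribed mainly in dividing cells.

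Of the 38 genes, 37 had a probe and all 37 were measured, meaning that at least 1 probe was well above background on both arrays. Atr, the kinase that responds to stalled replication forks, had no probe under that name or an alias and was not analysed here. The 37 genes had 67 probes, of which 59 were measured. The other 8, among them 2 of 3 probes of Neil3 and 1 of 2 of Rad54l, had signals of 4.99 to 21.8 and were left out. Values are processed signals, the scanner software's background-subtracted intensities, and log2 ratios of RCCS minus control after each array was scaled to its own 75th percentile. That percentile was 849 for control and 966 for RCCS, so a signal 1.14-fold higher on the RCCS array gives a log2 ratio of 0. With 1 array per condition there is no test between conditions and no error between cultures. The errors given are 95% half-widths from the spot error that the software assigns, 0.40 for a typical gene with 1 probe, and cover the spots alone.

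Over the whole array 16020 genes were measured, with a median log2 ratio of -0.13. At least 2-fold lower were 604 (3.77%) and at least 2-fold higher 622 (3.88%). Of the genes at least 2-fold apart, 50.7% were higher. Spike-in scaling moved this share to 82.2%, the 75th percentile of measured probes to 66.7%, loess to 63.6% and normexp with quantile normalization to 62.6%. Ratios are therefore also given relative to the median of all measured genes, a value that no single factor per array can shift. All 10 macrophage markers examined were measured, at 1135 (Itgam) or more in control and 4414 (Ptprc) or more in RCCS. Their median log2 ratio was 0.063, with Spi1 the lowest (-0.72) and Itgam the highest (1135 to 5153). Markers of other cell types were dim (Cd3e and Epcam, 27.2 to 149) or not measured on both arrays (Col1a1, Pecam1 and Alb). Both arrays lay on the same slide and were scanned together, per the file headers.

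The promoters of 4 members are shown because they are referred to below, and no ratio rests on them. Rad54l had the lowest ratio of all members, Rad51c was 1 of the 2 with an E2F-type sequence, and Brca1 and Atm each lie head to head with a gene whose ratio differed from theirs. The windows run from 250 bases before to 50 bases after the transcription start, 5′ to 3′, from RefSeq on assembly GRCm38.p6. Capitals mark CCAAT, the NF-Y box, or its reverse complement in Rad54l, Brca1 and Atm, and TTTCGCGC, an E2F-type sequence, in Rad51c.
Rad54l, chr4:116123641-116123940, minus strand: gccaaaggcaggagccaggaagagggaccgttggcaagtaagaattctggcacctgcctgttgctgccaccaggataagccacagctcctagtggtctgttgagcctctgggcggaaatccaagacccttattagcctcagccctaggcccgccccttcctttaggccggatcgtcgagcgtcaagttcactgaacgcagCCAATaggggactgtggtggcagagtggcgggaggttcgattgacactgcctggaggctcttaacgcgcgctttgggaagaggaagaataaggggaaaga
Rad51c, chr11:87404457-87404756, minus strand: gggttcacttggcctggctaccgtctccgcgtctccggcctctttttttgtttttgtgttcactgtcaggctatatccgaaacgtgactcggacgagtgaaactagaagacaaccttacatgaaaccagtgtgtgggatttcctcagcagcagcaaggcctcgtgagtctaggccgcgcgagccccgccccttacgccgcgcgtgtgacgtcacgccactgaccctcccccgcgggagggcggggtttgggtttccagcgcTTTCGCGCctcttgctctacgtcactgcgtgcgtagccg
Brca1, chr11:101551906-101552205, minus strand: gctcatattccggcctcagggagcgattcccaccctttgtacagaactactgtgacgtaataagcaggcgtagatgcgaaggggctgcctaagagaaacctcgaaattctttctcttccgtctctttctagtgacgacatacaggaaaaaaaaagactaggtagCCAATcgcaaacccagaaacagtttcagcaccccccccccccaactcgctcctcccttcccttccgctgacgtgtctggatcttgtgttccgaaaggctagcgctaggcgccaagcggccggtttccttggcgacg
Atm, chr9:53536622-53536921, minus strand: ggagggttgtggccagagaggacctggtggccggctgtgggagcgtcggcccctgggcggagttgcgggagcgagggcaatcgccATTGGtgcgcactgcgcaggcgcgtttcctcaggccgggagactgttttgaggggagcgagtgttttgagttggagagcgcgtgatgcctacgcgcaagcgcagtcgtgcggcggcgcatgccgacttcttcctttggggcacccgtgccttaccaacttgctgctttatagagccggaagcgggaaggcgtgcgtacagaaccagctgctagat
The marked sequence begins 50 bases before the start in Rad54l, 86 in Brca1 and 165 in Atm, and lies 11 bases after the start in Rad51c. Both strands were searched for TTTCGCGC, TTTGGCGC, CCAAT and TTTGAA. Promoters were in the table for 29 of the 37 measured members (not for Exo1, Xrcc2, Fancd2, Xpc, Ercc3, Prkdc, Nbn and Rad50).

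Most repair genes were lower on the RCCS array. Log2 ratios lay below 0 for 32 of 37, against 61.8% of all measured genes, and the median was -0.45, or 1.36-fold lower. Relative to all measured genes the median was -0.32, and 31 of 37 members lay under the all-gene median. At least 2-fold lower were 5 members (13.5%, against 3.77% of all genes). They were Rad54l, Fanca, Bard1, Ung and Fancd2. At least 1.5-fold lower were 14 (37.8%, against 14.8%), while Ercc1 was the member at least 1.5-fold higher (2.70%, against 9.74%). No member was at least 3-fold lower (0.961% of all genes) or 3-fold higher (1.28%). For 26 members the spot-error interval lay wholly below 0 (27.5% of all genes) and for 3, Ercc1, Xpc and Prkdc, wholly above it (15.7%). Members just inside the 2-fold line were Fancd2 (-1.11) and Ung (-1.12), and just outside it were Exo1 (-0.96) and Brca2 (-0.95). Measured genes within the members' range of control signal had a median of -0.11, and 13.8% of them were at least 1.5-fold lower.

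**Figure D1:**
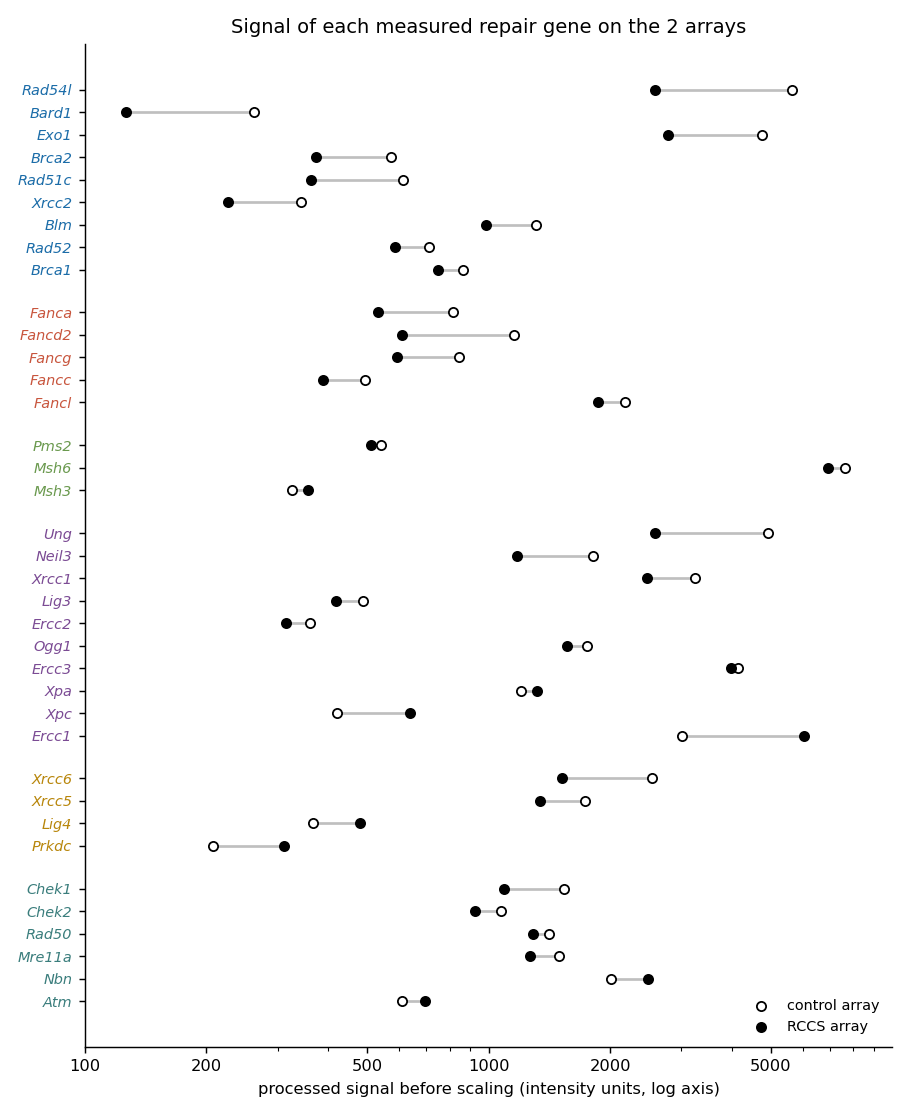
Processed signal of each of the 37 measured repair genes on the control array (open circles) and the RCCS array (filled circles), as the mean of its measured probes, before scaling, on a log axis in intensity units. Genes are grouped by pathway in the order homologous recombination, Fanconi, mismatch, excision, end joining and checkpoint; the homologous recombination and Fanconi genes have their filled circle to the left, and Msh3, Xpa, Xpc, Ercc1, Lig4, Prkdc, Nbn and Atm have it to the right.

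Homologous recombination had the lowest median of the 6 groups, -0.94 (-0.81 relative to all genes), and all 9 members were below 0. Rad54l, a motor protein that remodels chromatin and promotes strand exchange, had signals of 5645 in control and 2577 in RCCS, a log2 ratio of -1.32 ± 0.40 and a 2.49-fold lower level. Only 1.59% of measured genes had a lower ratio. Bard1, the partner that stabilises Brca1 in a ubiquitin ligase, went from 262 to 127, a ratio of -1.24 ± 0.42. Exo1, a nuclease that resects DNA ends and also serves mismatch repair, went from 4754 to 2776 (-0.96 ± 0.40).

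Brca2, which acts on resected single-stranded DNA, was read by 2 probes. The brighter went from 960 to 654 and the dimmer from 187 to 94.6, giving ratios of -0.74 and -1.17 and a gene value of -0.95 ± 0.29. Brca1, an upstream organiser of end resection, was nearer to 0 than its partner Bard1 and than Brca2. Its probes went from 1524 to 1341 and from 203 to 160, with a gene value of -0.45 ± 0.29. The intervals of Brca1 and Bard1 do not overlap. Those of Brca1 and Brca2 do. Bard1 rests on 1 dim probe, and its distance from Brca1 depends on the background correction. With normexp at the 75th percentile Bard1 was at -0.85 and Brca1 at -0.40. Rad51c (613 to 363, -0.94 ± 0.40) and Xrcc2, which act in strand exchange, were close to each other. The 3 measured probes of Xrcc2 lay at -0.53, -1.03 and -1.16, with the brightest, from 497 to 392, nearest to 0. Blm, the helicase that dissolves recombination intermediates, went from 1310 to 984 (-0.60 ± 0.40). Rad52, which anneals single strands, went from 775 to 651 and from 651 to 524 on its 2 probes (-0.47 ± 0.28).

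The Fanconi members all lay below 0, at a median of -0.79 (-0.66 against the all-gene median). Fanca, a subunit of the core complex, was at -1.24 ± 0.31, 2.36-fold lower, but its probes disagreed. The brighter went from 1478 to 1012 (-0.73) and the dimmer from 156 to 53.1 (-1.75), so the 2-fold call rests on the dimmer probe. Fancd2, the protein that the core complex ubiquitinates, went from 1156 to 609 (-1.11 ± 0.40) on its measured probe. Fancg, which binds Fanca in the core complex, had probes at -0.59, -0.73 and -1.06 and a gene value of -0.79 ± 0.23. Fancc (495 to 388, -0.54 ± 0.40) and Fancl, the ligase subunit of the core complex (-0.41 ± 0.28), were nearer to the all-gene median. The 2 probes of Fancl gave ratios of -0.40 and -0.42, with signals from 2509 to 2163 and from 1836 to 1558.

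Mismatch repair members lay close together, at a median of -0.33 (-0.20 relative to all genes), and 0 of 3 reached 1.5-fold. With 14.8% of all measured genes at least 1.5-fold lower and 9.74% higher, 0 of 3 does not set these genes apart. Msh6, which recognises single mismatches, was the brightest of all members, at 7648 in control and 6909 in RCCS (-0.33 ± 0.40). Pms2, an endonuclease subunit, was at -0.41 ± 0.38, from 1029 to 985 on its brighter probe and from 50.1 to 38.2 on a dim one. Msh3, which recognises loops, had a gene value of -0.33 ± 0.24, but its probes did not share a direction. The brightest went from 683 to 844 (0.12) and the others from 152 to 122 (-0.50) and from 142 to 105 (-0.62).

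Excision repair split by branch. The 5 base excision genes were all below 0, with a median of -0.58. Ung, the glycosylase that removes uracil, went from 4913 to 2575 (-1.12 ± 0.40, 2.17-fold lower). Neil3, a glycosylase for oxidised bases, went from 1814 to 1175 (-0.81 ± 0.40), and Xrcc1, the scaffold of single-strand break repair, from 3245 to 2472 (-0.58 ± 0.40). Its ligase partner Lig3 was at -0.43 ± 0.28, with probes from 578 to 518 and from 401 to 317. Ogg1, the glycosylase for 8-oxoguanine, was at -0.36 ± 0.28, from 2154 to 1964 on its brighter probe.

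The 5 nucleotide excision genes had a median of -0.055, or 0.075 above the all-gene median, and held the 2 members with the highest ratios. Ercc1, which with Ercc4 cuts 5′ of the lesion, went from 3016 to 6038, a ratio of 0.82 ± 0.40 and a 1.76-fold higher level, above 94.3% of measured genes. It was read by 1 probe. Its nuclease partner Ercc4 was at -0.15, the mean of 2 probes that differed in direction (-0.44 and 0.15). Xpc, the lesion sensor, had 2 probes that agreed, from 441 to 661 and from 400 to 617, and a value of 0.42 ± 0.28. Xpa, which verifies the lesion, was at -0.055 ± 0.40 (1201 to 1315). The helicases of the transcription and repair factor TFIIH, Ercc2 (361 to 315, -0.38 ± 0.40) and Ercc3 (4142 to 3981, -0.24 ± 0.40), both had intervals that include 0. With 5 further TFIIH genes the range was -0.57 (Gtf2h4) to 0.32 (Gtf2h2).

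End joining members went in both directions within 1 machine. The Ku subunits that bind the broken end were lower, Xrcc6 from 2533 to 1521 (-0.92 ± 0.40) and Xrcc5 from 1731 to 1340 (-0.55 ± 0.40). Prkdc, the catalytic subunit of the DNA-dependent kinase that Ku recruits, was higher, and its probe was printed 10 times on each array. The spots ran from 181 to 235 in control and from 283 to 334 in RCCS, so the 2 sets of spots did not overlap. Their mean log2 signals differed by 0.40 with a standard error of 0.037 over spots, which is a technical spread and says nothing of the spread between cultures. Lig4, the ligase of this pathway, was at 0.21 ± 0.29, with probes from 440 to 573 and from 295 to 390. The intervals of Prkdc and both Ku genes do not overlap.

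Checkpoint and break-sensing members had a median of -0.29, or -0.16 against the all-gene median. Chek1, the effector kinase of the replication checkpoint, was the lowest, from 1788 to 1243 and from 1289 to 937 on its 2 probes (-0.68 ± 0.28). Chek2, the effector kinase downstream of Atm, had probes from 1616 to 1392 and from 527 to 454, at -0.40 each (± 0.28 for the gene). Atm, the kinase that responds to double-strand breaks, was at 0.00 ± 0.21. Of the 10 spots of its repeated probe, 3 were called outliers on the RCCS array and left out on both. The 7 kept ran from 396 to 423 in control and from 438 to 492 in RCCS, which scaling brings level, at a difference of -0.014 with a standard error of 0.026 over spots. With all 10 spots the difference was -0.030. The second probe of Atm went from 809 to 933 (0.021).

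The 3 subunits of the complex that tethers and trims broken ends lay between -0.31 and -0.21. Rad50 went from 1411 to 1291 (-0.31 ± 0.40). Mre11a, the nuclease, had probes at -0.45 (4080 to 3399), -0.41 (232 to 198) and 0.055 (174 to 206), with a gene value of -0.27 ± 0.24. Nbn, which links the complex to Atm, had a bright probe that was higher (3431 to 4542, 0.22) and a dimmer one that was lower (595 to 432, -0.65), so its mean of -0.21 ± 0.28 describes neither.

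**Figure D2:**
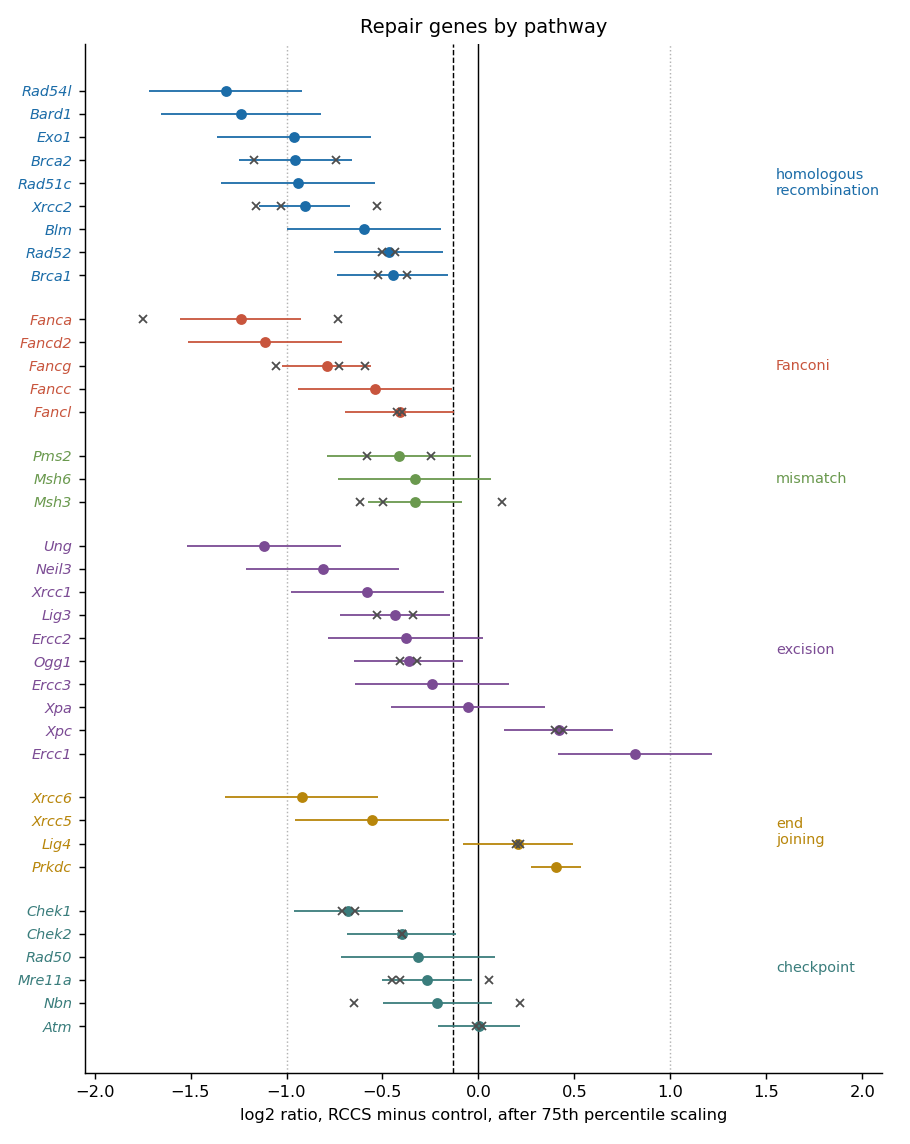
Log2 ratio of RCCS minus control for each of the 37 measured repair genes, grouped and coloured by pathway, after 75th percentile scaling. Points are gene values, bars the 95% half-widths from spot error, crosses the single probes of genes with several; the solid line is 0, the dashed line the all-gene median of -0.13 and the dotted lines 2-fold. All 14 homologous recombination and Fanconi genes lie left of the dashed line, and Ercc1, Xpc, Prkdc and Lig4 lie right of 0; Atm is at 0.00.

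Members known for transcription mainly in S phase of dividing cells had a lower median than the rest, but not within every pathway. These 12 genes (Brca1, Brca2, Bard1, Rad54l, Blm, Exo1, Fanca, Fancd2, Msh6, Ung, Neil3 and Chek1) had a median of -0.96, ran from -1.32 to -0.33 and were all under the all-gene median. They included all 5 members at least 2-fold lower. The list of 12 was drawn up with earlier results of these data known, so the split is a description and not a test. The other 25 had a median of -0.38, ran from -0.94 (Rad51c) to 0.82 (Ercc1), and 19 lay under the all-gene median, so the ranges overlap. The difference of the medians was -0.58, and -0.43 with the brightest probe of each gene, its nearest to 0 over 13 alternative settings. Within homologous recombination the medians were close, -0.96 for 6 linked members and -0.91 for the other 3. In mismatch repair the linked member, Msh6 (-0.33), was above the median of the other 2 (-0.37). The linked members were lower in the Fanconi pathway (-1.17 against -0.54), in excision repair (-0.96 against -0.30) and in checkpoint signalling, where Chek1 was the linked member (-0.68 against -0.27), and end joining had 0. Among the 25, those at least 1.5-fold lower were Rad51c, Xrcc6, Xrcc2 and Fancg (16%, against 14.8% of all measured genes).

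Genes used as markers of proliferation moved with these members. All 21 were measured and below 0, with a median of -0.94. The lowest was Top2a, the topoisomerase of mitotic chromosomes, at -1.28, with probes at -1.86 and -0.70. The highest was Mki67, the Ki-67 antigen gene, at -0.45. Of the 21, 20 were at least 1.5-fold lower (95.2%, against 14.8% of all measured genes). The part of this in the repair genes' ratios was not tested. In these bulk samples fewer cells in S phase and less RNA per cell cannot be told apart.

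**Figure D3:**
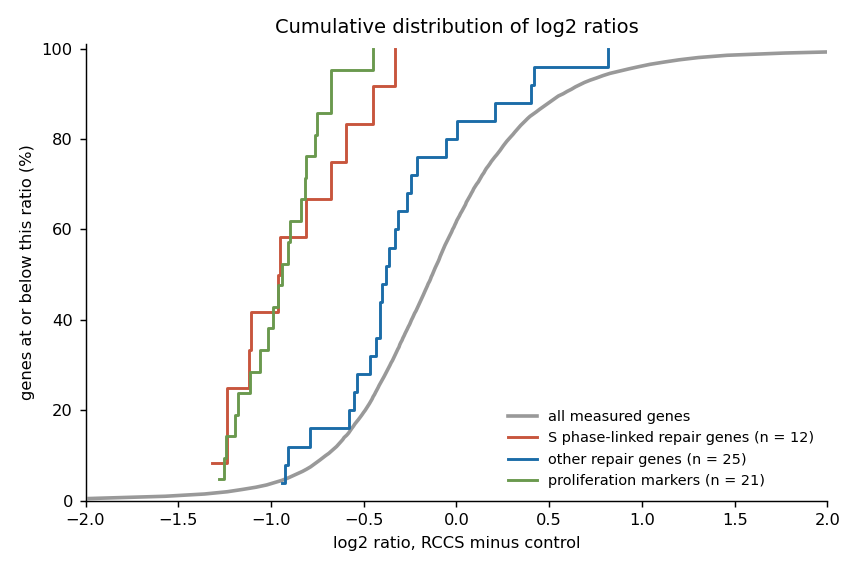
Cumulative share of genes (percent) at or below each log2 ratio of RCCS minus control, for all 16020 measured genes, the 12 S phase-linked repair genes, the other 25 repair genes and 21 proliferation markers. The S phase-linked repair genes and the proliferation markers have medians of -0.96 and -0.94, the other repair genes -0.38 and all genes -0.13; the axis stops at 2 on each side.

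The other genes of the same pathways were also mostly lower on the RCCS array. Of 89 listed, 84 were measured, with a median of -0.44. At least 2-fold lower were 8 (against 3.77% of all measured genes), and at least 2-fold higher 0 (against 3.88%). At least 1.5-fold lower were 29 (34.5%, against 14.8%). Among 21 homologous recombination genes, 4 were at least 2-fold lower, and those farthest from 0 were Rad54b, a relative of Rad54l (-1.43), Rad51b (-1.28) and Rpa2, a subunit of the single-strand binding complex (-1.05). Of the 9 Fanconi genes measured, 3 were at least 2-fold lower: Fanci, the partner of Fancd2 (-1.46, with probes at -2.10 and -0.83), Faap24 (-1.21) and Ube2t, the ubiquitin-conjugating enzyme of the core complex (-1.16).

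In mismatch repair 4 other genes were measured, with Mlh3 the highest (0.52) and none at 2-fold. Of 29 excision genes, Mutyh, which removes adenine opposite 8-oxoguanine, was at least 2-fold lower (-1.01, with probes from -1.66 to -0.13), followed by the flap nuclease Fen1 (-0.94). The 7 end joining genes had 0 at least 1.5-fold lower or higher (against 14.8% and 9.74% of all measured genes). Those farthest from 0 were the polymerases Polq (-0.42) and Poll (-0.37) and Rif1 (-0.33). Of 14 checkpoint genes, 7 were at least 1.5-fold lower (50%, against 14.8% of all measured genes). The lowest were Cdc25a (-0.91), Wee1 (-0.91) and Timeless (-0.88).

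**Figure D4:**
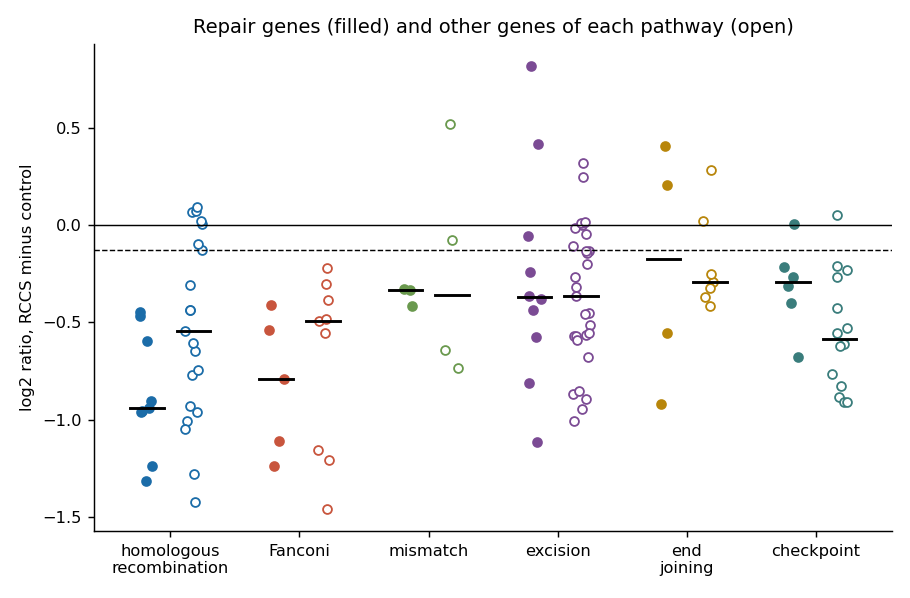
Log2 ratio of RCCS minus control for the repair genes (filled) and the other genes of the same pathway (open); short bars are medians, the solid line is 0 and the dashed line the all-gene median of -0.13. Medians of the other genes are -0.54 in homologous recombination, -0.49 in Fanconi, -0.36 in mismatch, -0.36 in excision, -0.30 in end joining and -0.58 in checkpoint; horizontal spread within a column has no meaning.

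Several members share their promoter region with a neighbour that starts within 1000 bases on the opposite strand, and 6 such pairs had both genes measured. Brca1 (-0.45) and Nbr1, an autophagy receptor gene, differed in direction. Nbr1 was at 0.38, from 1188 to 1805, and the difference of -0.83 ± 0.37 stayed between -0.86 and -0.77 over 13 alternatives. Atm (0.00) and Npat, which activates histone genes at the start of S phase, differed by 0.77 ± 0.37, since Npat was at -0.77 (416 to 298). Over the alternatives this difference ran from 0.55 to 0.81. The promoter windows of Brca1 and Atm printed above lie in these shared regions.

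For the other 4 pairs the difference was within its half-width. Pms2 (-0.41) faced Aimp2 (-0.84), Xrcc6 (-0.92) faced Desi1 (-0.43), Lig4 (0.21) faced Abhd13 (0.29), and Mre11a (-0.27) faced Ankrd49 (0.024). The 3 probes of Abhd13 ran from -0.12 to 0.84, and the Lig4 pair's difference changed sign in 2 of 13 alternatives. The Xrcc6 pair was at the edge, at -0.49 ± 0.49. A difference within its half-width does not show that a pair was alike.

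**Figure D5:**
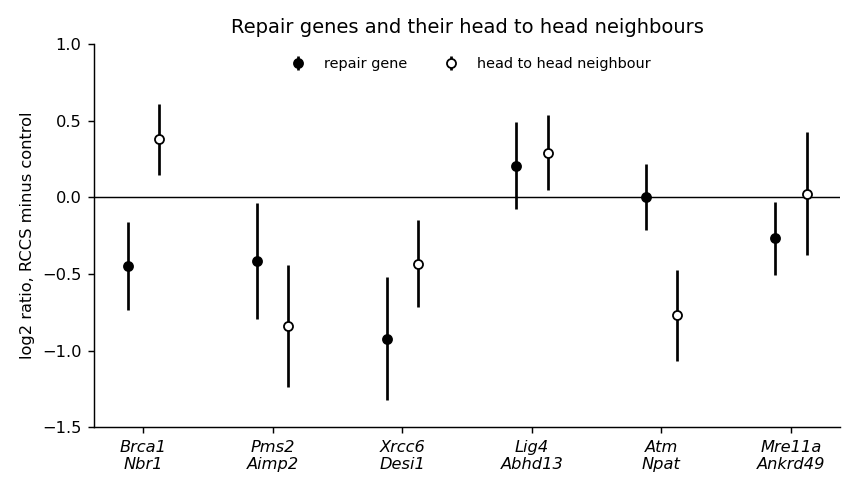
Log2 ratio of RCCS minus control for 6 repair genes (filled) and the neighbour that starts head to head with each (open), with 95% half-widths from spot error. The intervals do not overlap for Brca1 with Nbr1 and for Atm with Npat; they overlap in the other 4 pairs.

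The searched promoter sequences were found in these shares of the members. TTTCGCGC or TTTGGCGC was found in 2 of 29 members, Rad51c and Msh3 (6.90%, against 1.72% of 9995 measured genes in the table), and in 5 of 18 proliferation markers. In Msh3 the 2 forms overlap each other, and a second RefSeq start of Rad51c has neither form in its window. None of the 10 S phase-linked members in the table held either form, which says only that these letters are not in these windows. CCAAT was found in 16 of 29 members (55.2%, against 43.0% of measured genes) and in 14 of 18 proliferation markers, and TTTGAA in 1 member, Bard1 (against 14.9% of measured genes). Members with CCAAT had a median log2 ratio of -0.43 and those without it -0.68. Over the 9995 measured genes these medians were -0.14 and -0.13, nearly equal.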

How the data were processed

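RNA was measured on 1 array of control cells and 1 of RCCS cells. The deposited spot intensity values were made from 1-colour scans with Agilent Feature Extraction 9.5.3.1, per the file headers and the submitters' processing notes, with background subtracted and surface trends removed and no scaling between arrays. A second deposited table holds a ratio of each probe's signal to its own array's level; the authors' steps for it are not given in the sources used here. Here, spots called outliers by the software (117 and 120) were left out, spots of a probe averaged, and log2 signals scaled to the 75th percentile of 41174 non-control probes. A probe was measured where at least 50% of its spots were well above background on both arrays. A gene is the mean of its measured probes, named by accession (22950 probes matched RefSeq, GRCm38.p6) or else as in the files. No spot was saturated (0). Precision is limited by having 1 array a condition, which allows no test. The spot error is combined over arrays and probes, times 1.96. Python 3.11.15, limma 3.58.1 (normexp) and statsmodels 0.14.6 (loess) were used, and the summary was tested on simulated data. Members and lists were chosen with earlier results of these data known. Named are all members, of each list of other pathway genes the 3 farthest from 0, each measured head to head neighbour, and the lowest and highest proliferation marker; Ercc4, Gtf2h2, Gtf2h4 and the cell type markers were named after their values were seen. Some genes that the rule names are not reported here.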

Additional observations from a re-analysis of the deposited data

How the results depend on the processing

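The member median (-0.45) stayed below 0 in all 13 alternatives. It was -0.31 with the 75th percentile of measured probes and -0.14 with spike-in scaling, and relative to all genes (-0.32) it was -0.40 with quantile normalization, -0.41 with loess and -0.22 when dim probes were kept. The 5 members at least 2-fold lower became 3 with the 75th percentile of measured probes, with normexp at the 75th percentile and without the filter, 2 with normexp and quantile normalization, and 1 with spike-in scaling. With spike-in scaling and with loess, 1 member (Ercc1) was at least 2-fold higher, against 1201 and 756 of all 16020 genes. Spike-in scaling put 3 members at least 1.5-fold higher in place of 1, and the all-gene share for that count is not given here. Relative to all genes, homologous recombination (-0.81) was at -0.59 with normexp at the 75th percentile and -0.62 both without the filter and with the brightest probe, and Fanconi (-0.66) at -0.47 with the brightest probe. End joining (-0.044) turned to 0.075 without the filter, since the all-gene median moved from -0.13 to -0.25 and the 4 members' ratios did not move. The count at least 1.5-fold lower stayed within 1.5 times of 14, while the all-gene share ran from 5.31% with spike-in scaling to 15.4% without the filter. Of 481 values of single members, 455 moved by less than their half-width and 26 by more. None of the 5 members at least 2-fold lower changed sign, while Msh3, Xpa, Ercc3, Atm, Nbn and Mre11a did so in 1 to 3 alternatives. No paired analysis was possible because each condition has 1 array, and no replicate could be left out. Dim probes limit the values of Fanca, Brca2, Bard1 and Pms2.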

Other observations

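Probes of the same repair gene did not always give the same ratio. Of 18 members with several measured probes, the dimmest probe had a lower log2 ratio than the brightest in 13 (72.2%), against 58.7% of 5092 genes over the whole array, with a median difference of -0.12 against -0.07. Probes lay more than 0.5 apart in 5 members (27.8%, against 30.0% of genes). They were Fanca, Nbn, Msh3, Xrcc2 and Mre11a, and in Mre11a the dimmest probe was the higher one, by 0.50. In Nbn and Msh3 the brightest probe lay above 0 and the dimmest below, 0.87 and 0.74 apart. The members without a second measured probe, among them Rad54l, Bard1, Ung, Fancd2 and Ercc1, have no such check.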
